A study of Mus musculus with 24 samples.

Results

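Mural cells wrap the blood vessels of the heart: pericytes sit along capillaries, and smooth muscle cells form the contractile wall of arteries, arterioles and veins. The 9 genes described here are markers of these cells, and all 9 had a row in the count table of 52724 genes. They were taken by symbol, and all 9 were among the 16018 genes that passed the filter on low counts. Pericytes are represented by Pdgfrb, Rgs5, Cspg4, Kcnj8 and Abcc9, and smooth muscle by Acta2, Myh11, Tagln and Cnn1.

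The libraries came from whole mouse hearts in a study of Fkbp1a, which encodes FKBP12, an immunophilin that binds the ryanodine receptor. There were 24 libraries, 6 for each of 4 genotypes and 3 for each genotype in each of 2 labelled batches. FKl/l hearts carried the floxed Fkbp1a gene and no labelled Cre. FKl/l MHC+ hearts carried it with Cre recombinase under the α-myosin heavy chain promoter, and FKl/l MCK+ hearts with Cre under the muscle creatine kinase promoter. Both promoters act in heart muscle cells, the first from an earlier embryonic stage. The Cre level may also differ between them, and the labels do not give it. MHC CRE Only hearts carried the α-myosin heavy chain Cre, and their labels give no floxed allele. Neither Cre is driven by a mural cell promoter, the labels give neither age nor sex, and they name no treatment. The labels do not say whether libraries of a genotype came from different animals, and the p-values measure only the spread between these libraries, which may be technical. In RNA from whole hearts, fewer cells of a type and less RNA per cell cannot be told apart.

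Pericytes are recruited to new vessels by platelet-derived growth factor from endothelial cells, which acts on the receptor encoded by Pdgfrb. Rgs5 encodes a regulator that shortens G protein signalling, and Cspg4 encodes the surface proteoglycan NG2. Kcnj8 and Abcc9 encode the pore Kir6.1 and the regulatory subunit SUR2 of the ATP-sensitive potassium channel of vessels. Abcc9 is also transcribed in cardiomyocytes, where SUR2 partners with another pore. Acta2 and Myh11 encode smooth muscle α-actin and smooth muscle myosin heavy chain, and Tagln and Cnn1 encode the actin-binding proteins transgelin (SM22α) and calponin 1. The contractile genes are classical targets of serum response factor with its coactivator myocardin. That factor binds the CArG box, an A- and T-rich core of 6 bases between CC and GG.

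The promoters of Acta2 and Cnn1 are shown because they are the contractile members for which a sequence was at hand, and because they differ in the motifs found. Both run from 250 bases before to 50 bases after the start of the RefSeq transcript on GRCm38.p6, 5′ to 3′ on the strand of the gene. Capitals mark a CArG box in which at most 1 of the 6 core bases is G or C, or the MCAT letters GGAATG, bound by TEAD factors, both searched on both strands. The allowance of 1 G or C was chosen after the Acta2 sequence had been seen.
Acta2, chr19:34255324-34255623, minus strand: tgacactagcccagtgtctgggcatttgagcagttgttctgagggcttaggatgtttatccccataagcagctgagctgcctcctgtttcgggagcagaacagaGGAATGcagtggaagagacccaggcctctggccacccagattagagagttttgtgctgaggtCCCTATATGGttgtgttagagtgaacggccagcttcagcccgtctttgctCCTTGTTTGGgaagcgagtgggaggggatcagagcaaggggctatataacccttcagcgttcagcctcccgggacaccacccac
Cnn1, chr9:22099003-22099302, plus strand: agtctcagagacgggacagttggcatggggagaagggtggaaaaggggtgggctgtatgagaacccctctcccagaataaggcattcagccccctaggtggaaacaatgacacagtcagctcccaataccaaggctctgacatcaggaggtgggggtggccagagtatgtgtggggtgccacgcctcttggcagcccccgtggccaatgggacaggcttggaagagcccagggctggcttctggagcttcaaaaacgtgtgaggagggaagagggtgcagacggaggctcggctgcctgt
Acta2 held 2 such CArG boxes, 84 and 34 bases before the start, and 1 MCAT match, 146 bases before it. Neither motif stood in the Cnn1 window. Among 32851 mouse promoters of the same length, 9.98% held a CArG box with this allowance, 1.63% held one with no G or C in its core, and 14.7% held GGAATG. Of the 9 members, 6 had a promoter entry that was used, and in the other 4 of these (Rgs5, Cspg4, Kcnj8 and Abcc9) the one match was an MCAT in Abcc9, 219 bases before the start. A match describes letters in a window and is not evidence that a factor binds there.

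In the annotation on GRCm38, Pdgfrb lay at chr18:61045150-61085061, Rgs5 at chr1:169655501-169695813, Cspg4 at chr9:56865033-56899870 and Acta2 at chr19:34241090-34255590. Myh11 lay at chr16:14194535-14291372, Tagln at chr9:45929619-45936058 and Cnn1 at chr9:22099216-22109630. The channel genes were neighbours on chromosome 6, Kcnj8 at 142564837 to 142571614 and Abcc9 at 142587862 to 142702315. A stretch of 16247 bases with 0 annotated genes separated them.

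The libraries held between 27799403 and 40412640 counts each, and 25.7% to 36.5% of them fell on mitochondrially encoded genes. Fkbp1a, the targeted gene, stood at 130.4 ± 10.1 CPM (counts scaled to a common library size; SD, n = 6) in FKl/l and 122.1 ± 20.6 in MHC CRE Only. In the deletion groups it stood at 65.1 ± 10.7 in FKl/l MCK+ and 59.1 ± 12.6 in FKl/l MHC+. The library labelled MHC CRE Only 1-3 held 81.8 CPM, close to the highest FKl/l MCK+ library at 81.1, which goes against the genotype it is labelled with. Libraries MHC CRE Only 2-3 and FKl/l 1-1 held markers of lung and airway epithelium, described with the smooth muscle genes. These 3 libraries were left out together as an alternative to the tests of the members. Every list gene named below as called between genotypes stayed called without them. The batch differences of list genes were not refitted in this way.

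Per kilobase of merged exon, the mean level over the 24 libraries was highest for Acta2 at 114 CPM per kb, followed by Rgs5 at 51.3 and Tagln at 34. Kcnj8 (16), Abcc9 (14.5) and Pdgfrb (14) lay close together. Myh11 stood at 7.34, Cspg4 at 4.89 and Cnn1 at 4.14 CPM per kb. The ranges over libraries of Kcnj8 (12.9 to 18.4), Abcc9 (10.8 to 18.5) and Pdgfrb (11.5 to 17.3) overlapped almost fully. Tagln was the member whose counts were least certain: an antisense gene, Gm48529, overlapped 62.4% of its exon bases. Searched on both strands, 48.3% of the Tagln stretches of 50 bases also occurred in other transcripts, and 44.5% occurred in Gm48529. Gm48529 itself had 1330 counts over all libraries against 59085 for Tagln, and the strand setting of the counting is not given in the sources used here.

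**Figure D1:**
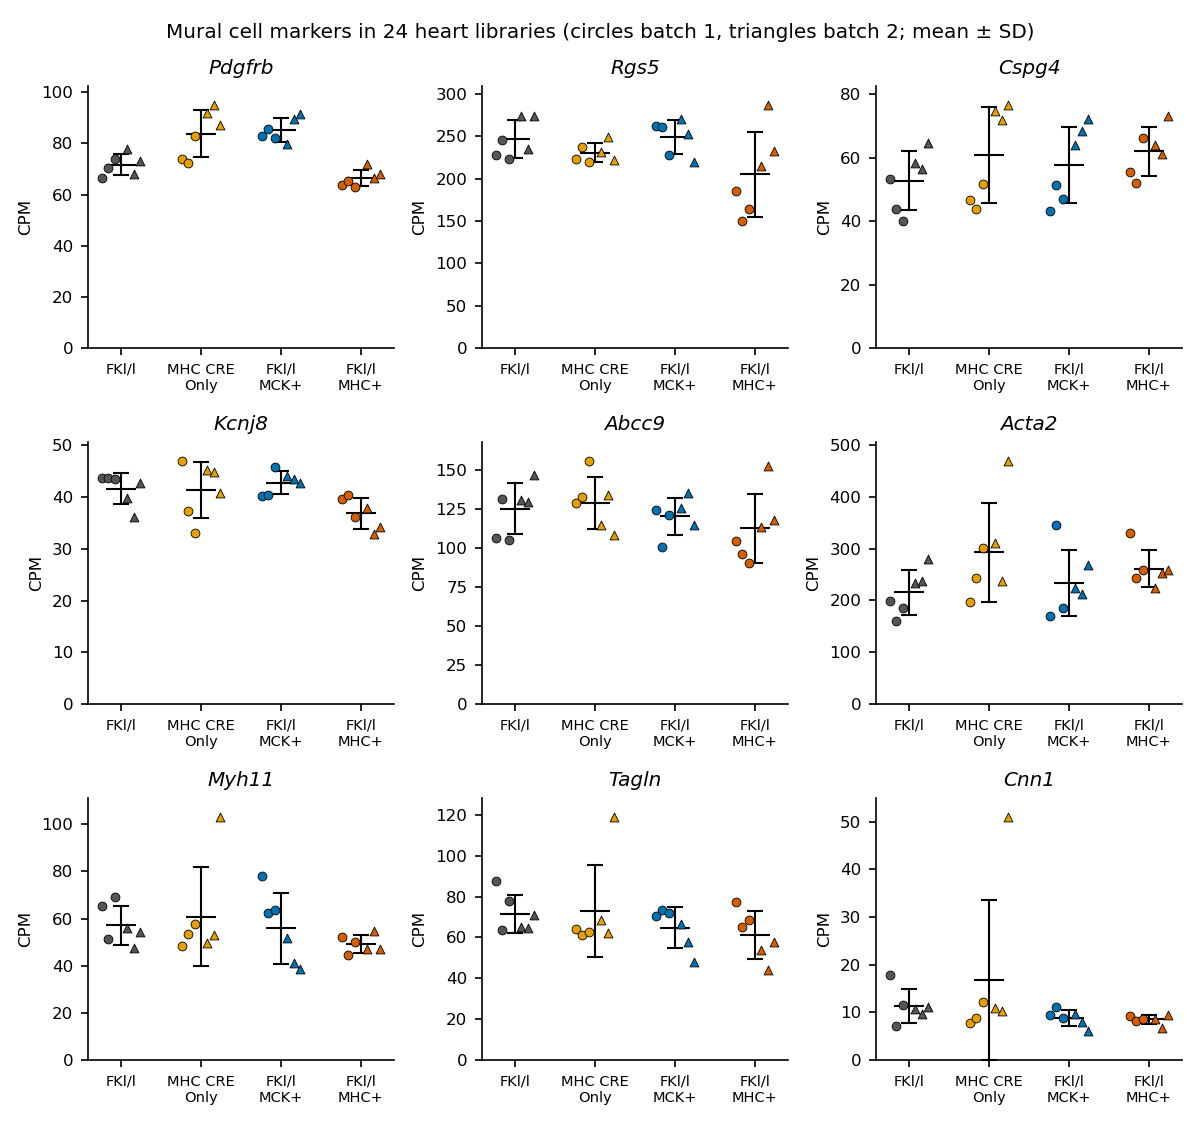
Level of each of the 9 markers (CPM, linear axis from 0) in every library, by genotype; circles are batch 1, triangles batch 2, and bars give the mean ± SD of 6 libraries. The FKl/l MHC+ libraries of Pdgfrb lie between 63.0 and 71.8 CPM, below all MHC CRE Only and all FKl/l MCK+ libraries, while 1 MHC CRE Only library stands far above the rest for Myh11, Tagln and Cnn1.

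Across the 4 genotypes, 1 of the 9 members changed, the receptor gene Pdgfrb (edgeR quasi-likelihood test on all 4 genotypes, Benjamini-Hochberg adjusted p = 0.000448). Among all genes tested, 2.44% were called in the same test. An unadjusted p under 0.05 was reached by 4 members, against 17.4% of all genes. Pdgfrb ranked 29 among the 16018 genes. The other 8 members did not pass, with adjusted p from 0.166 for Rgs5 to 0.665 for Myh11.

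Pdgfrb was lowest in FKl/l MHC+ hearts, with a lowest library of 63.0 CPM, a median of 65.9 and a highest of 71.8. In FKl/l hearts the lowest, median and highest were 66.4, 71.8 and 77.9 CPM. MHC CRE Only hearts ran from 72.3 through a median of 85.0 to 94.8 CPM, and FKl/l MCK+ hearts from 79.7 through 84.3 to 91.7 CPM. Thus every FKl/l MHC+ library lay below every MHC CRE Only and every FKl/l MCK+ library, while FKl/l overlapped both FKl/l MHC+ and MHC CRE Only.

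Set against the Cre control, Pdgfrb was lower in FKl/l MHC+ hearts (66.4 ± 3.23 CPM there and 83.8 ± 9.25 in MHC CRE Only, SD, n = 6). The log2 difference was -0.33 (SE 0.0576, adjusted p = 0.00183). It was the 1 member of 9 called in that comparison, in which 0.78% of all genes were called lower and 1.87% in either direction. It was also the 1 member whose ranges did not overlap there, against 0.805% of all genes. Between the deletion models, Pdgfrb was lower in FKl/l MHC+ than in FKl/l MCK+ (85.3 ± 4.62 CPM), with a log2 difference of -0.36 (SE 0.0576, adjusted p = 0.00079). Again it was the 1 member called, where 1.17% of genes were called lower and 2.15% in either direction, and the 1 without overlap, against 1.19% of genes. Both differences are small: as folds they are 0.793 and 0.777, and neither was called when tested against a fold of 1.2 (adjusted p = 1 and 0.852).

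Pdgfrb in FKl/l MHC+ hearts differed from FKl/l hearts (71.7 ± 4.22 CPM) by -0.11 (SE 0.0576, adjusted p = 0.364, 95% interval -0.23 to 0.00 on the log2 scale). MHC CRE Only and FKl/l MCK+ hearts stood above FKl/l hearts by 0.22 (SE 0.0575, adjusted p = 0.104) and 0.25 (SE 0.0575, adjusted p = 0.176), which did not pass. All 6 FKl/l MCK+ libraries nevertheless lay above all 6 FKl/l libraries, and Pdgfrb was the 1 member of 9 without overlap in that pair, against 0.225% of all genes. DESeq2 called both of these differences (adjusted p = 0.0148 for FKl/l MCK+ and 0.0174 for MHC CRE Only). The mean levels ran, from low to high, FKl/l MHC+, FKl/l, MHC CRE Only and FKl/l MCK+. None of the 3 neighbouring steps passed the test, the last one having a log2 difference of 0.03 (95% interval -0.08 to 0.14, adjusted p = 0.907).

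Within batch 1 the Pdgfrb differences were -0.22 against MHC CRE Only (adjusted p = 0.237) and -0.34 against FKl/l MCK+ (adjusted p = 0.0509), and neither passed. Within batch 2 they were -0.42 (adjusted p = 0.00222) and -0.34 (adjusted p = 0.0193). The MHC CRE Only libraries held 72.3, 74.0 and 82.9 CPM in batch 1 and 87.1, 91.9 and 94.8 CPM in batch 2. In batch 2 alone, Pdgfrb in MHC CRE Only hearts was above FKl/l hearts as well (log2 fold change 0.33, adjusted p = 0.0411). The change of the difference between FKl/l MHC+ and MHC CRE Only from batch 1 to batch 2 did not pass for Pdgfrb (-0.15, SE 0.105, adjusted p = 0.464). Leaving out any 1 of the 24 libraries kept both calls, the adjusted p reaching at most 0.00815 against MHC CRE Only and 0.00365 against FKl/l MCK+.

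**Figure D2:**
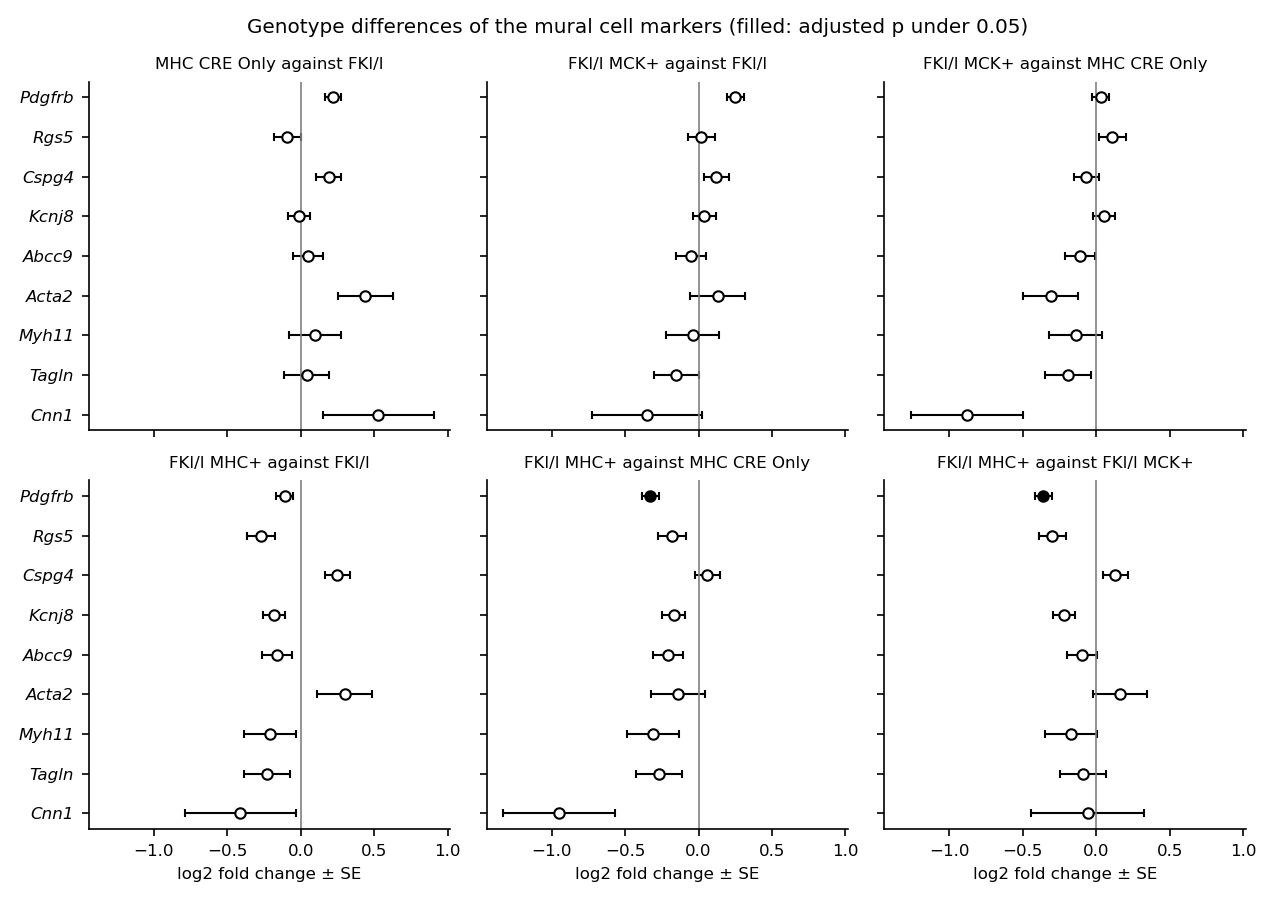
Log2 fold change ± SE (horizontal axis) of the 9 markers in the 6 pairs of genotypes, from 1 edgeR fit; filled points have an adjusted p under 0.05. Pdgfrb is filled in 2 panels, at -0.33 and -0.36, and no other marker is filled in any panel.

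No member was called in the other 4 pairs by edgeR's adjusted test. In FKl/l MHC+ against FKl/l, where 1.71% of all genes were called, 0 of 9 members passed edgeR's adjusted test, 3 had an unadjusted p under 0.05, and 14.7% of all genes had one. DESeq2 also called 0 there, and no member's ranges were apart, against 1.12% of genes. In FKl/l MCK+ against FKl/l (0.0499% of genes called), 1 member had an unadjusted p under 0.05, against 5.24% of genes, and DESeq2 called 1, Pdgfrb. In MHC CRE Only against FKl/l (0.0437% of genes called), 3 members had an unadjusted p under 0.05, against 12.9% of genes, DESeq2 called 1, Pdgfrb, and 0 members had ranges apart, against 0.624% of genes. In FKl/l MCK+ against MHC CRE Only (0.0999% of genes called), the member with an unadjusted p under 0.05 was Cnn1, against 10.1% of genes, DESeq2 called 0, and 0 had ranges apart, against 0.449%. In the pairs in which Pdgfrb was called, 4 members (against MHC CRE Only) and 3 (against FKl/l MCK+) had an unadjusted p under 0.05, where 15.8% and 15.4% of genes did. Over the members, the median log2 difference of FKl/l MHC+ was -0.18 from FKl/l, -0.21 from MHC CRE Only and -0.10 from FKl/l MCK+, against medians over all genes of -0.003, -0.016 and -0.007. The pairs share groups, so these medians are not independent of each other.

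Endothelial markers differed beside Pdgfrb between the deletion models. Of 15 endothelial genes, 9 were called lower in FKl/l MHC+ than in FKl/l MCK+ and 0 higher, where 1.17% of all genes were called lower. Among the 9 were Robo4, a guidance receptor of endothelial cells (-0.43, SE 0.0670, adjusted p = 0.000622), and Cdh5, the cadherin of endothelial junctions (-0.36, SE 0.0704, adjusted p = 0.0058). The summed endothelial level ran from 996.8 to 1267 CPM in FKl/l MHC+, from 1217 to 1544 in FKl/l MCK+, from 1159 to 1346 in MHC CRE Only and from 1069 to 1436 in FKl/l. No endothelial sum was near 0 in any library. Robo4 alone of the 15 was called lower against MHC CRE Only (-0.33, adjusted p = 0.00791) and against FKl/l (-0.32, adjusted p = 0.0076). Below 0 were 13 of the 15 against MHC CRE Only and 14 against FKl/l. An unadjusted p under 0.05 was reached by 7 and 10 of them. Without the 3 doubted libraries 4 were called against MHC CRE Only, 3 against FKl/l and 10 against FKl/l MCK+. With all libraries, FKl/l MCK+ itself stood above 0 in 14 of the 15 against FKl/l and in 15 against MHC CRE Only. The medians were 0.12 and 0.14, and 0 were called in either pair. An unadjusted p under 0.05 was reached there by 3 and 7 genes, against 5.24% and 10.1% of all genes. Of 11 fibroblast genes, 2 were lower in FKl/l MHC+ than in FKl/l MCK+, the matrix genes Fbln1 (-0.41, adjusted p = 0.0173) and Dpt (-0.36, adjusted p = 0.0398). Fbln1 was also called higher in FKl/l MCK+ than in FKl/l (0.55, adjusted p = 0.00859), a pair in which 0.0499% of all genes were called. In FKl/l MCK+, 10 of the 11 lay above 0 against FKl/l and 11 against MHC CRE Only, with 0 called in the latter pair. The fibroblast sums were 1002 to 1178 CPM in FKl/l MHC+ and 1030 to 1482 in FKl/l MCK+. The fibroblast sums were 926 to 1095 CPM in FKl/l and 977.3 to 1088 in MHC CRE Only, and the FKl/l MHC+ median of 1025 lay above the FKl/l median of 1006. The part of these cells in the Pdgfrb result was not tested.

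Ligands of the receptor and the receptor's relative Pdgfra were read from a list of 5 genes. Pdgfd, a ligand that acts on the receptor encoded by Pdgfrb, was the 1 called across the 4 genotypes (adjusted p = 0.0294), and it was lower in FKl/l MHC+ than in FKl/l hearts (-0.60, SE 0.122, adjusted p = 0.00638). Pdgfa, Pdgfb, Pdgfc and Pdgfra were not called in any genotype test. Other pericyte and mural genes gave 0 of 17 called by edgeR across the 4 genotypes, 6 of them with an unadjusted p under 0.05. In single pairs, P2ry14, a receptor for UDP-sugars, was lower in FKl/l MHC+ than in MHC CRE Only (-0.46, SE 0.122, adjusted p = 0.0451), and Mcam, the adhesion molecule CD146, was lower than in FKl/l MCK+ (-0.27, SE 0.0743, adjusted p = 0.0499). In the latter pair all 17 had a log2 difference below 0, with a median of -0.17 against -0.007 over all genes. Their summed level ran from 491.2 to 552.6 CPM in FKl/l MHC+ and from 551.3 to 604.5 in FKl/l MCK+, which overlap slightly, and from 535.4 to 550.8 in MHC CRE Only. In FKl/l it ran from 497.5 to 543.5 CPM, with a median of 508.4 that lay below the 525 of FKl/l MHC+.

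Rgs5, the regulator of G protein signalling, differed between batches within 1 genotype. FKl/l MHC+ libraries of batch 1 held 150.4, 163.9 and 185.4 CPM, the lowest 3 of the 24 libraries. Those of batch 2 held 214.8, 232.6 and 286.7 CPM, and the last was the highest of all 24. The other 3 genotypes together lay between 220.2 and 273.8 CPM in both batches, so batch 1 of FKl/l MHC+ lay wholly below them. How many of all genes split in this way was not counted.

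Averaged over batches, Rgs5 stood at 205.6 ± 50.2 CPM in FKl/l MHC+, 246.7 ± 22.3 in FKl/l, 230.9 ± 11.5 in MHC CRE Only and 249.3 ± 20.3 in FKl/l MCK+ (SD, n = 6). Its differences of -0.27 from FKl/l (SE 0.0930, adjusted p = 0.133) and -0.30 from FKl/l MCK+ (SE 0.0932, adjusted p = 0.0947) did not pass. Without FKl/l MHC+ 2-2 they were -0.37 (adjusted p = 0.0132) and -0.39 (adjusted p = 0.0105). Batch 1 alone gave -0.45 (adjusted p = 0.0436) and -0.55 (adjusted p = 0.0237), and batch 2 alone gave -0.10 (adjusted p = 0.813) and -0.02 (adjusted p = 0.962). The test that any genotype difference differs between the batches called Rgs5 and no other member (adjusted p = 0.0476), where 4.91% of all genes were called. That call held in 7 of the 24 fits with 1 library left out (leaving out 1-1 or 1-3 of FKl/l, 1-1 of MHC CRE Only, 1-3 or 2-1 of FKl/l MCK+, or 1-1 or 2-1 of FKl/l MHC+) and was lost without any other library, with an adjusted p of up to 0.155.

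The channel pore and its regulatory subunit did not pass across genotypes. Kcnj8 was lowest in FKl/l MHC+, at 33.0 CPM in the lowest library, a median of 37.0 and 40.4 in the highest. FKl/l libraries ran from 36.3 through 43.1 to 43.8 CPM, MHC CRE Only from 33.1 through 42.8 to 46.9, and FKl/l MCK+ from 40.1 through 43.2 to 45.8. All groups overlapped, and the difference across genotypes did not pass (adjusted p = 0.268). In batch 2 alone Kcnj8 was lower in FKl/l MHC+ than in MHC CRE Only (-0.33, adjusted p = 0.015) and FKl/l MCK+ (-0.31, adjusted p = 0.0455). In batch 1 alone the differences were 0.02 (adjusted p = 0.96) and -0.08 (adjusted p = 0.761). The shifts between batches did not pass when tested themselves (-0.30, adjusted p = 0.224, and -0.19, adjusted p = 0.504). The lowest MHC CRE Only library of Kcnj8 was the doubted library 1-3 of batch 1.

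Abcc9, the regulatory subunit, stood at 112.3 ± 22 CPM in FKl/l MHC+, 124.9 ± 16.2 in FKl/l, 128.7 ± 16.5 in MHC CRE Only and 120 ± 11.8 in FKl/l MCK+ (SD, n = 6), with an adjusted p of 0.534 across genotypes. Its FKl/l MHC+ libraries held 90.2, 96.3 and 104 CPM in batch 1 and 113.3, 117.8 and 152.1 in batch 2. Batch 2 thus lay above batch 1 in this genotype, 3 libraries against 3, a split whose share over all genes was not counted. In MHC CRE Only the order was the other way, with 128.3, 132.5 and 155.2 CPM in batch 1 and 108.1, 114.8 and 133.4 in batch 2. The difference between FKl/l MHC+ and MHC CRE Only shifted by 0.62 on the log2 scale from batch 1 to batch 2 (SE 0.163, adjusted p = 0.0378). Rgs5 shifted by 0.51 in the same contrast (SE 0.143, adjusted p = 0.0498). These were the 2 of 9 members called, both higher in batch 2, where 2.47% of genes were called higher and 3.07% in either direction. The highest batch 1 value of Abcc9 in MHC CRE Only came from library 1-3, whose Fkbp1a level goes against its label, and without that library the shift of Abcc9 was 0.54 (adjusted p = 0.132). The Abcc9 call was also lost without MHC CRE Only 2-1 or 2-3 or FKl/l MHC+ 1-2, 1-3 or 2-2, and held in 18 of 24 fits. For Rgs5 the call held in 6 of 24 fits, with shifts of 0.38 to 0.59. Without all 3 doubted libraries neither passed, at 0.49 for Rgs5 (adjusted p = 0.213) and 0.47 for Abcc9 (adjusted p = 0.274). The other pore and regulatory subunit of this channel family, Kcnj11 and Abcc8, were not called in any genotype test.

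**Figure D3:**
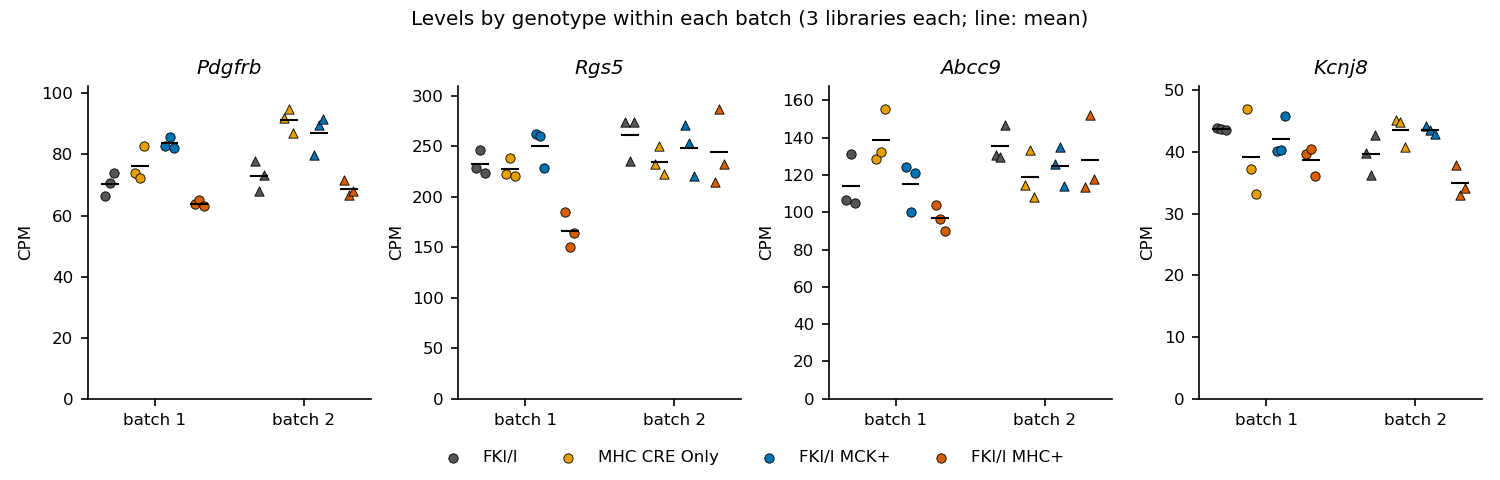
Level (CPM, linear axis from 0) of Pdgfrb, Rgs5, Abcc9 and Kcnj8 by genotype within batch 1 (circles) and batch 2 (triangles), 3 libraries each with their mean as a line. The mean of Pdgfrb is lowest in FKl/l MHC+ in both batches, whereas Rgs5 is low in FKl/l MHC+ in batch 1, at 150.4 to 185.4 CPM, and not in batch 2.

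Cspg4, the NG2 proteoglycan, differed by batch. It stood at 49.6 ± 7.1 CPM in batch 1 and 67.2 ± 6.68 CPM in batch 2 (SD, n = 12 each), a rise of 0.44 on the log2 scale (SE 0.0605, adjusted p = 1.77e-06). In FKl/l, MHC CRE Only and FKl/l MCK+ every batch 2 library lay above every batch 1 library, while in FKl/l MHC+ the batches overlapped. These are splits of 3 libraries against 3, and the share of all genes that split so within a genotype was not counted. Pdgfrb (0.12, SE 0.0407, adjusted p = 0.0214) and Rgs5 (0.19, SE 0.0659, adjusted p = 0.0243) were also higher in batch 2. That made 3 of 9 members higher and 0 lower, where 22.2% of all genes were called higher and 16.2% lower, 38.4% in all. The share of counts on mitochondrially encoded genes moved with batch, from 27.6% to 36.5% with a median of 35% in batch 1 and from 25.7% to 29.9% with a median of 28.7% in batch 2. The TMM scaling factors did so too, with medians of 0.912 and 1.06. The same 3 members were called with mitochondrially encoded genes left out. The part of RNA composition in the batch differences was not tested. With all genotypes pooled, 0 members had batches apart, against 1.5% of genes. With upper quartile scaling Cspg4 alone was called (0.38). What the batches are is not given beyond their number.

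By genotype, Cspg4 ran from 40 through a median of 54.9 to 64.8 CPM in FKl/l and from 43.9 through 61.9 to 76.5 in MHC CRE Only. It ran from 43.3 through 57.7 to 72.3 CPM in FKl/l MCK+ and from 52.0 through 62.6 to 73.3 in FKl/l MHC+. All groups overlapped. In contrast to the other pericyte members, its difference of FKl/l MHC+ from FKl/l was above 0 (0.25, SE 0.0854, adjusted p = 0.144), and without the 3 doubted libraries it passed (0.30, adjusted p = 0.0465).

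No smooth muscle member passed the test across genotypes or in any pair. Acta2, the smooth muscle actin, stood at 216 ± 43.4 CPM in FKl/l, 293.1 ± 95.9 in MHC CRE Only, 234.5 ± 64 in FKl/l MCK+ and 261.7 ± 36.1 in FKl/l MHC+ (SD, n = 6; adjusted p = 0.419 across genotypes). Its highest library was MHC CRE Only 2-3 at 468.7 CPM, followed by FKl/l MCK+ 1-2 at 345 and FKl/l MHC+ 1-1 at 330.5. Acta2 is also made by activated fibroblasts. Of 6 tested myofibroblast genes, 0 were called by edgeR across genotypes and 2 had an unadjusted p under 0.05, with sums of 61.4 to 73.6 CPM in FKl/l MHC+, 69.4 to 89.3 in FKl/l, 63.7 to 88.8 in MHC CRE Only and 68.3 to 101 in FKl/l MCK+, all overlapping.

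Myh11, the smooth muscle myosin, stood at 57.1 ± 8.39 CPM in FKl/l, 60.9 ± 20.9 in MHC CRE Only, 55.9 ± 15 in FKl/l MCK+ and 49.3 ± 3.79 in FKl/l MHC+ (SD, n = 6; adjusted p = 0.665). Tagln stood at 71.6 ± 9.4, 72.9 ± 22.6, 64.7 ± 10 and 61.1 ± 11.7 CPM in the same order (adjusted p = 0.589). In each of these genes the 4 groups overlapped, and MHC CRE Only had the widest spread.

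Cnn1, the calponin of differentiated smooth muscle, ran from 7.08 through a median of 10.8 to 17.8 CPM in FKl/l and from 7.72 through 10.6 to 50.9 in MHC CRE Only. In FKl/l MCK+ it ran from 6.03 through 9.10 to 11 CPM, and in FKl/l MHC+ from 6.63 through 8.65 to 9.52. All 4 ranges overlapped, with 1 MHC CRE Only library far above the rest. Its difference of FKl/l MHC+ from MHC CRE Only was the furthest from 0 of any member in any pair and did not pass (-0.95, SE 0.381, adjusted p = 0.227), and without MHC CRE Only 2-3 it was -0.22 (adjusted p = 0.583). That of FKl/l MCK+ from MHC CRE Only went from -0.88 (adjusted p = 0.45) to -0.17 (adjusted p = 0.753), and that of MHC CRE Only from FKl/l went from 0.53 (adjusted p = 0.589) to -0.18 (adjusted p = 0.684).

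The library MHC CRE Only 2-3 held the highest level of all 4 contractile members: 468.7 CPM for Acta2, 102.9 for Myh11, 118.7 for Tagln and 50.9 for Cnn1. It also held the highest sum of 14 other contractile genes, 1094 CPM. The same library had by far the highest sum of lung and airway epithelium markers, 482.5 CPM over the 7 of 13 such genes that passed the filter. FKl/l 1-1 followed with 156.5 CPM, and it held the next highest Tagln (87.4 CPM) and Cnn1 (17.8 CPM), but neither its Acta2 (198.6 CPM) nor its Myh11 (65.3 CPM) stood out. In the other 22 libraries the lung sum lay between 0.444 and 32.2 CPM, and surfactant and lung genes such as Sftpc, Sftpb and Lamp3 had 0 counts in 12, 16 and 20 of the 24 libraries. The part of lung tissue in these smooth muscle values was not tested.

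**Figure D4:**
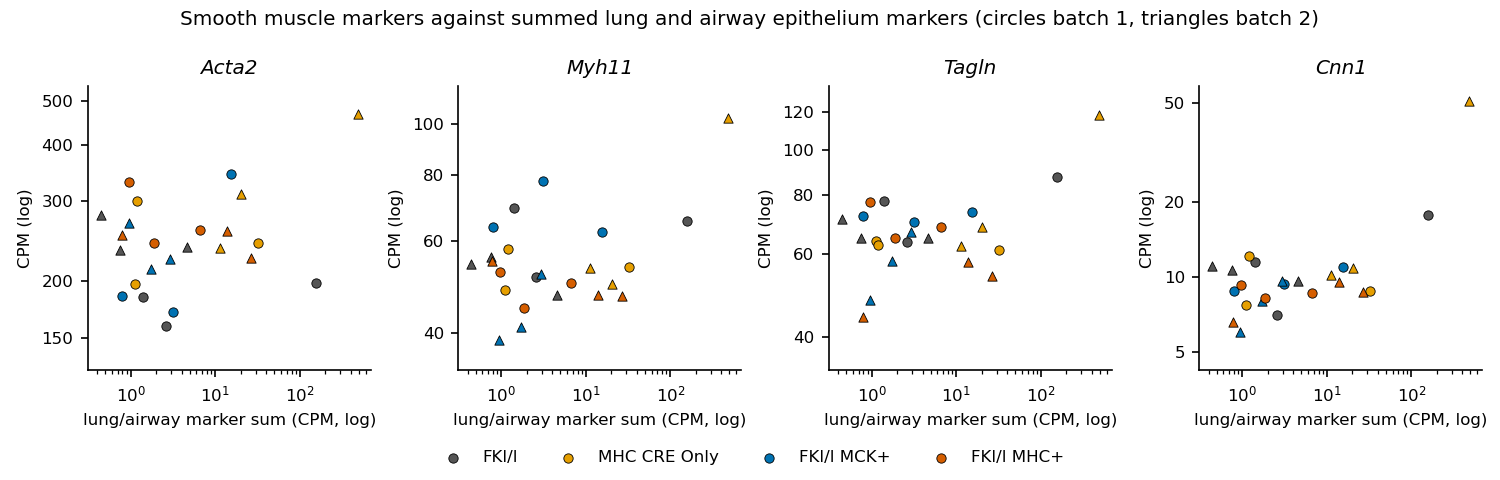
Level of the 4 smooth muscle markers (CPM, log axis) in each of the 24 libraries against the sum of 7 lung and airway epithelium markers (CPM, log axis), coloured by genotype. MHC CRE Only 2-3, at 482.5 CPM on the horizontal axis, is highest for all 4 genes, and FKl/l 1-1, at 156.5 CPM, is next for Tagln and Cnn1.

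Other genes of the contractile apparatus gave 0 of 14 called by edgeR across the 4 genotypes, 4 of them with an unadjusted p under 0.05. In pairs, the β-tropomyosin gene Tpm2 was lower in FKl/l MHC+ than in MHC CRE Only (-0.45, SE 0.109, adjusted p = 0.0277). Irag1, a substrate of cGMP-dependent protein kinase, was lower in FKl/l MHC+ than in FKl/l MCK+ (-0.30, SE 0.0793, adjusted p = 0.0447). Regulators of the smooth muscle program, among them Srf and Myocd, gave 0 of 9 called by edgeR across the 4 genotypes and in every pair, and 1 had an unadjusted p under 0.05 across the 4. The other actins gave 0 of 5 and the other transgelins and calponins 0 of 4 across genotypes, each with 1 gene at an unadjusted p under 0.05, although Cnn3 was lower in FKl/l MHC+ than in FKl/l MCK+ (-0.23, SE 0.0586, adjusted p = 0.0316). Between batches Srf and Myocd, the factors named above for their role, were higher in batch 2 (0.29, adjusted p = 0.000524, and 0.31, adjusted p = 0.014).

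Within genotype and batch, 1 relation among the 9 members passed the test, between 2 contractile genes. Log2 CPM values had the mean of each genotype in each batch subtracted, and all 36 pairs of members were correlated over the 24 libraries. It was that of Tagln with Cnn1 (Pearson's r = 0.926, permutation p = 0.00011, adjusted p = 0.00396; Spearman's rho = 0.839, adjusted p = 0.0126). Without the 2 libraries farthest in Tagln r was 0.838, and without the 3 doubted libraries it was 0.886. It was 0.798 within batch 1 and 0.961 within batch 2.

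The 6 pairs of contractile members had r from 0.424 to 0.926 with a median of 0.69. Without the 3 doubted libraries these ran from -0.0876 to 0.886 with a median of 0.332. The 10 pairs of pericyte members had r from -0.256 to 0.577 with a median of -0.0941. Their highest was Rgs5 with Abcc9 (r = 0.577, permutation p = 0.0206, adjusted p = 0.181; rho = 0.623, adjusted p = 0.134), at 0.189 in batch 1 and 0.847 in batch 2. The channel partners Kcnj8 and Abcc9, neighbours on chromosome 6, had r = -0.108 (permutation p = 0.685, adjusted p = 0.91; rho = 0.0548, adjusted p = 0.96).

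**Figure D5:**
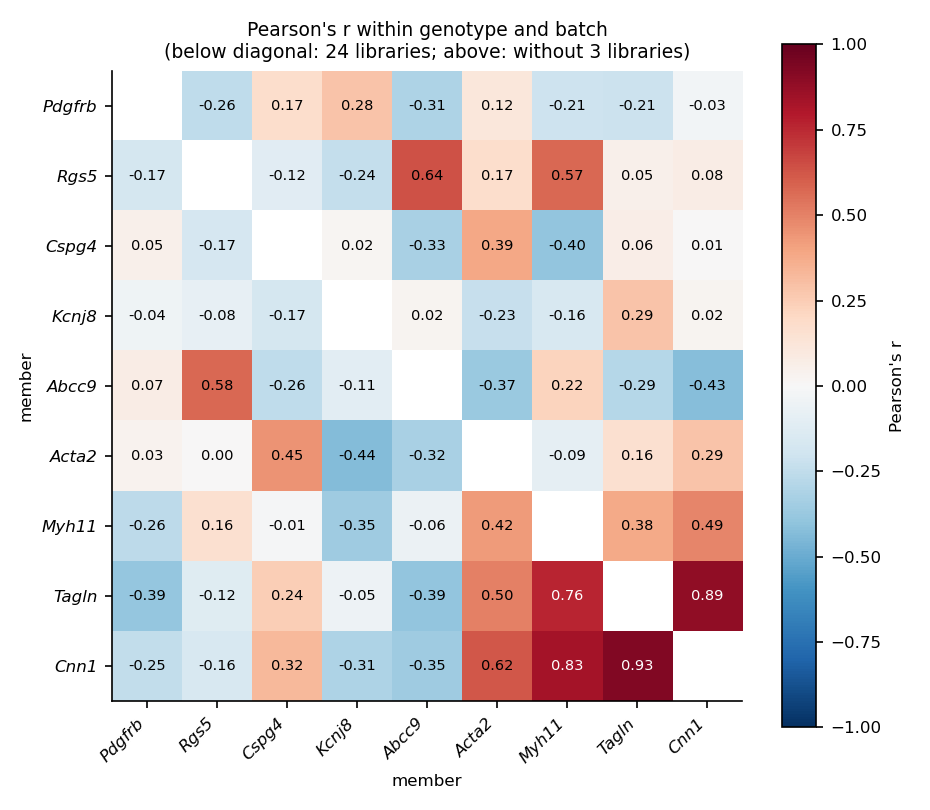
Pearson's r between the 9 markers (both axes) over log2 CPM with genotype-by-batch means subtracted, for all 24 libraries below the diagonal and without 3 doubted libraries above it; colour runs from -1 to 1. The contractile block at the lower right reaches 0.93 for Tagln with Cnn1, and that pair stays at 0.89 above the diagonal.

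Genes most like each member were found by Pearson's r over the 24 libraries with batch means subtracted, among genes with a mean of at least 5 CPM, and are given as a description. Since the libraries share genotype and differ in composition and depth, r carries no test here. The closest to Pdgfrb were Stard8 (0.879), Ets2 (0.868) and Clip2 (0.865). Rgs5 was followed by Fkbp3 (0.914), Myo10 (0.887) and Phyh (0.882), Cspg4 by Tubb2b (0.862), Cavin3 (0.827) and Mfap5 (0.819), and Kcnj8 by Tm4sf1 (0.841), Thra (0.813) and Gm49708 (0.8).

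Abcc9 was closest to Pln, the phospholamban gene of cardiomyocytes (0.926), then to Asb15 (0.903) and Pdk1 (0.878). None of its 3 nearest genes was on a mural cell list, and the same held for Pdgfrb, Rgs5, Cspg4, Kcnj8 and Acta2. Acta2 was closest to Col6a3 (0.781), Dgkd (0.778) and Col1a2 (0.749), of which Col6a3 and Col1a2 encode collagen chains. Myh11 was closest to Mylk (0.792), Lmod1 (0.787) and Mbp (0.787), of which the first pair are smooth muscle contractile genes. Tagln was closest to Csrp1 (0.914), Actg2 (0.886) and Plekhb1 (0.846), and Cnn1 to Actg2, the enteric smooth muscle actin (0.946), Aldh1a1 (0.869) and Cbr2 (0.863). Without the 3 doubted libraries r fell to 0.166 for Cnn1 with Aldh1a1 and 0.316 with Cbr2, and to 0.662 with Actg2. For Myh11 it fell to 0.493 with Mylk, 0.497 with Lmod1 and 0.523 with Mbp. Tagln had 0.78 with Csrp1, 0.723 with Actg2 and 0.69 with Plekhb1. By contrast r was 0.894 for Pdgfrb with Stard8 and 0.893 for Abcc9 with Pln.

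In the authors' deposited tables, which cover 5 of the 6 pairs of genotypes, 0 of the 45 values of these members had an adjusted p under 0.05. The smallest unadjusted p in the authors' deposited tables was 0.074, for Pdgfrb in FKl/l MHC+ against FKl/l MCK+, with a log2 fold change of -0.35. Those tables gave a statistic of 0 to every gene with a log2 fold change of up to 0.263 in size, as a test against a minimum fold does.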

How the data were processed

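RNA from whole hearts was sequenced after a strand-preserving library preparation, per the labels' protocols, and bcl2fastq 2.17, FastQC, Trim Galore, STAR and RSEM with build mm10 are named in the submitters' processing notes. The authors deposited whole-number counts per gene row for 24 libraries, and the sources used here give neither the rounding of RSEM estimates nor the strand setting. The authors also deposited 5 tables of log2 fold changes, p-values and a test score per gene, per the file headers, which were used only where named. Of 56384 rows, 3660 named by transcript were left out (0.873% to 4.28% of counts, 0 of them of a member). No per-sample column was left unused.

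Counts were fitted with edgeR 4.0.16 (limma 3.58.1, R 4.3.3): TMM scaling, filterByExpr, a robust quasi-likelihood fit of genotype and batch over all 24 libraries, and Benjamini-Hochberg adjustment over 16018 genes with a threshold of 0.05. CPM use TMM library sizes. Relations used log2(CPM + 0.5) and 100000 permutations of libraries within genotype and batch, with Pearson's and Spearman's coefficients adjusted over 36 pairs. Sequences and positions came from RefSeq (GRCm38.p6) and GENCODE on GRCm38. Replicate libraries differed by more than sampling noise (chi-square per degree of freedom 8.37 to 157). Alternatives were DESeq2 1.42.0, limma voom, upper quartile scaling, other filters and designs, single batches and left-out libraries.

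The 9 members, the lists of other genes and the 3 doubted libraries were chosen with earlier results of these data known. Named genes are all members, the targeted gene, up to 4 called genes of each list and the 3 nearest genes of each member; other genes are named for their role. Adipocyte, atrial and cardiomyocyte lists gave 0 of 5, 0 of 5 and 0 of 8 genes called by edgeR across genotypes (0 at an unadjusted p under 0.05 in each), lung and airway epithelium 0 of 7 (2 unadjusted), fibroblast 1 of 11, endothelial 6 of 15 and the potassium channel list 0 of 2 (0 unadjusted).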

Additional observations from a re-analysis of the deposited data

Results flagged for a closer look

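In a group of 6 libraries, a library counts as far from the rest when its gap to the nearest other exceeds 0.625 of the group's range (Dixon's test). Of 36 groups (9 members in 4 genotypes), 4 held such a library, where chance gives about 1 in 20. Of these, 3 were the same library, MHC CRE Only 2-3, with 102.9 CPM of Myh11, 118.7 CPM of Tagln and 50.86 CPM of Cnn1, against next values of 57.9, 68.6 and 12.1 CPM in the group. The fourth was FKl/l MHC+ 1-1, with 330.5 CPM of Acta2 against a next value of 259.6.

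Genotype differences that differed between the batches by a test of the difference itself were found for 2 members. Rgs5 passed the test over all genotypes (edgeR, adjusted p = 0.0476), where 4.91% of all genes were called. In FKl/l MHC+ against MHC CRE Only, the log2 difference was higher in batch 2 than in batch 1 by 0.51 for Rgs5 and by 0.62 for Abcc9. Of all genes, 2.47% were called higher in that contrast and 3.07% in either direction. There the Rgs5 and Abcc9 calls held in 6 and 18 of the 24 fits with 1 library left out, and neither held without the 3 doubted libraries.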

How the results depend on the processing

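Counts of called members are given here by setting. Across the 4 genotypes 1 member was called, 2 in batch 2 alone and 1 to 2 over the 24 fits without 1 library; batch 1 alone called 1, but it was Rgs5 and not Pdgfrb. For FKl/l MHC+ against MHC CRE Only the count of 1 became 0 against a fold of 1.2 and in batch 1 alone, and 2 in batch 2 alone. For FKl/l MHC+ against FKl/l MCK+ it became 0 against a fold of 1.2, 2 in batch 2 alone, and 1 to 2 without 1 library. In batch 1 alone it stayed at 1, but the member was Rgs5 and not Pdgfrb. For FKl/l MHC+ against FKl/l the count of 0 became 1 in batch 1 alone (Rgs5), 1 without the 3 doubted libraries (Cspg4) and 0 to 1 without 1 library. For the other pairs with a count of 0, DESeq2 gave 1 in FKl/l MCK+ against FKl/l and in MHC CRE Only against FKl/l, and batch 2 alone gave 1 in the latter. For batch 2 against batch 1 the count of 3 became 1 with upper quartile scaling and against a fold of 1.2, 5 without the 3 doubted libraries, and 2 to 5 without 1 library. For genotype by batch interaction the count of 1 became 0 with upper quartile scaling, without mitochondrially encoded genes and without the 3 doubted libraries. It became 7 with no filter, 3 with DESeq2, and 0 to 2 without 1 library. With no filter the adjusted p of Cnn1 in this test went from 0.268 to 6.08e-21. How many of all genes were called for the interaction in these settings is not given here. The counts thus describe the settings and not the members. The r of Tagln with Cnn1 went from 0.926 to 0.886 without the 3 doubted libraries. The causes were not tested. No value changed sign while called. Without the 3 doubted libraries, chosen for the lists after seeing the data, 1 of 17 other pericyte genes, 1 of 14 other contractile genes and 1 of 4 transgelins and calponins were called across genotypes, each against 0 before. Of the endothelial genes 8 of 15 were called across genotypes without these libraries, against 6 before.

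With the label number as a replicate block, 1 member (Pdgfrb) was called across genotypes (adjusted p = 0.00252) and in each of its 2 pairs, and 0 in FKl/l MCK+ against FKl/l. Same-numbered libraries of different genotypes in a batch had a median r of -0.0642 over 36 pairs (-0.459 to 0.328). Those with different numbers had 0.0315 over 72 pairs (-0.358 to 0.482). The numbers thus showed no sign of a pairing, which such a check cannot exclude. Calls over all genes differed from the 391 across genotypes with DESeq2 (986), no batch term (95) and the block (268). For Pdgfrb's pairs, 299 genes against MHC CRE Only became 571 with DESeq2, 42 with no batch term, 78 in batch 1 and 915 in batch 2, and 345 against FKl/l MCK+ became 562, 103, 211 and 171.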
